A study of Homo sapiens with 64 samples.

Results

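The keratins described here were 10 genes that are known from stratified epithelia and hair: KRT4, KRT5, KRT6A, KRT13, KRT14, KRT15, KRT16, KRT17, KRT79 and KRT81. They were chosen by symbol, by a rule that uses no measured value but with earlier results of these data known, and are 10 of the 54127 genes listed in each table of counts. RNA was sequenced in 64 samples of 6 colorectal cancer (CRC) cell lines grown as floating spheroids in serum-free medium with EGF and bFGF: subtype CCS1 (HT55, SW948), subtype CCS2 (RKO, SW48) and subtype CCS3 (DLD1, HCT15). The cells of all 6 lines had been stained with CFSE, a dye that each division dilutes, and on day 6 they were sorted into label-retaining cells (LRCs, CFSE High in the labels), which had divided little, and non-LRCs (BULK), which had kept dividing, with 4 samples of each per line. The other 16 samples were unsorted DLD1 cells, stained with CFSE or left unlabeled in DMSO, on day 1 or on a later day that the labels call day 5 and the series text day 6, with 4 samples per group. No group carried an engineered allele or a drug treatment, and each line is a single established line. In fits of a single line the p-values measure the spread between its 4 samples per group. Fits over several lines or groups pool the spread of all their samples.

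Keratins are the intermediate filament proteins of epithelial cells. A filament is built from pairs of 1 acidic type I and 1 basic type II chain, and tissues differ in the pair they use. Simple epithelia such as the colon use KRT8 with KRT18, KRT19 and KRT20. Stratified epithelia use KRT5 with KRT14 in the dividing basal layer, where KRT15 is also made, and KRT4 with KRT13 above it in moist mucosa. KRT6A, KRT16 and KRT17 are made in hair follicles and nails and are induced in skin by wounding. KRT79 marks the upper hair follicle, and KRT81 is a hard keratin of the hair shaft. KRT4, KRT5, KRT6A, KRT79 and KRT81 are type II genes that lie together on chromosome 12, and KRT13, KRT14, KRT15, KRT16 and KRT17 are type I genes that lie together on chromosome 17.

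Several of these genes are near copies of one another, which matters for reads of 50 bases, so the start of the coding sequence is shown for 2 sets of copies. Positions are on GRCh37, the build the authors aligned to, and capitals mark bases that differ from the first gene of each set. KRT16 lies on the minus strand at chr17:39768881-39768940, KRT14 at chr17:39743027-39743086 and KRT17 at chr17:39780702-39780761.
KRT16: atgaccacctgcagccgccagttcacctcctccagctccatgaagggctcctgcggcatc
KRT14: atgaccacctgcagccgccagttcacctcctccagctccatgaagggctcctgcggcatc
KRT17: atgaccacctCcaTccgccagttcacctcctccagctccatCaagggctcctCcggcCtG
The first 60 coding bases of KRT16 and KRT14 were identical, and those of KRT17 differed at 6 positions.

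KRT6A lies on the minus strand at chr12:52886913-52886972 and its copy KRT6B at chr12:52845803-52845862.
KRT6A: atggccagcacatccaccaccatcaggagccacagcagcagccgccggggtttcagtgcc
KRT6B: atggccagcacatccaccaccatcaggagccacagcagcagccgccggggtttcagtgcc
A further copy, KRT6C, had the same 60 bases. KRT81 lies inside the locus of its copy KRT86, on the opposite strand.

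Over whole transcripts, the share of 50-base windows that also occur elsewhere in the genome was 42.7% for KRT81, 39.4% for KRT6A, 28.2% for KRT14, 24.4% for KRT16 and 18.2% for KRT17. It was 4.91% for KRT5 and 0.354% for KRT79, and no such window was found in KRT4, KRT13 or KRT15. Reads with several alignments were set apart from the gene counts in the files, so the levels of KRT6A, KRT14, KRT16, KRT17 and KRT81 are uncertain to that extent. KRT13 shares no window with another place in the genome, but 21.3% of its windows lie under an antisense gene that held 7 reads in all 64 samples, against 578 for KRT13. The strand setting of the counting was not stated, which also leaves KRT81 and KRT86 hard to tell apart.

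**Figure D1:**
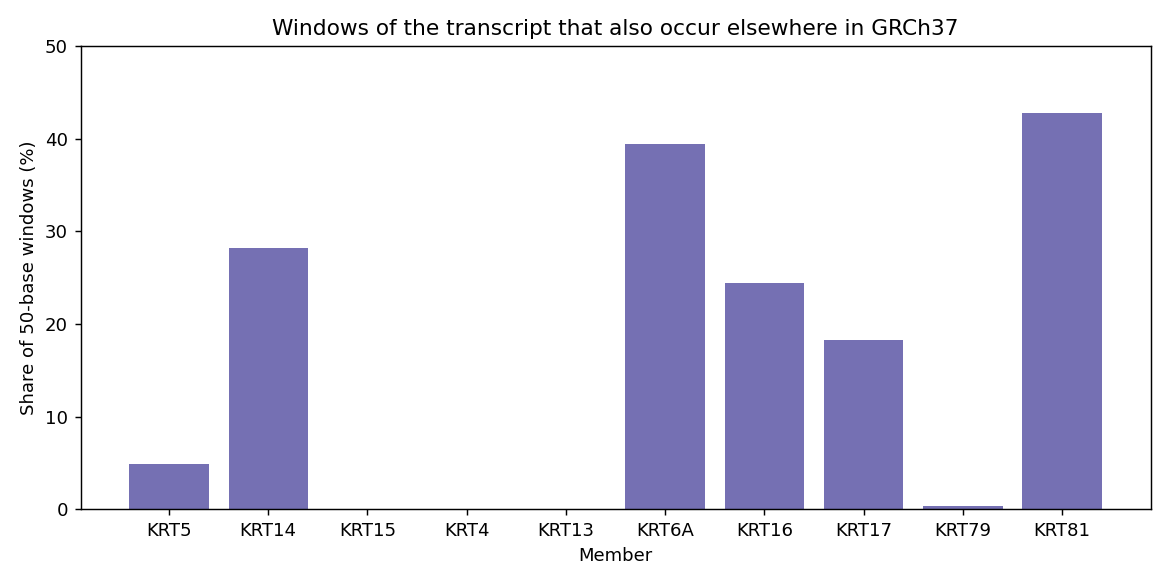
Share of the 50-base windows of each member's transcript that also occur elsewhere in GRCh37, in percent. KRT81 and KRT6A have the tallest bars, at 42.7% and 39.4%, and KRT4, KRT13 and KRT15 have none.

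The reads on genes numbered 12237225 to 20913455 per sample. The colorectal label was checked with 10 markers (EPCAM, CDH1, KRT8, KRT18, KRT19, KRT20, CDX1, CDX2, VIL1 and LGALS4), whose summed level ran from 2679.9 to 18326 CPM (counts scaled by library size and TMM factors) in the sorted samples of 5 lines and from 217 to 324 CPM in RKO. In RKO, KRT20 averaged 0.140 CPM and KRT19 1.02 CPM over 8 samples. KRT20 was low in SW48 (0.288 CPM) and HCT15 (3.26 CPM) too. Most of the sum in SW48 came from KRT8 (1136 CPM), KRT18 (792) and KRT19 (346), which are keratins of simple epithelia. A high sum alone therefore does not show a colorectal origin. CDX1 was at 0 in the non-LRCs of HCT15. CD3E, a T cell marker, was at 0 in all 16 groups.

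The 10 keratins differed in abundance by orders of magnitude, and most of their reads came from a single gene in a single line. KRT16, a partner of KRT6A, held 23344 reads over the 64 samples and KRT15 10063. The others had 1475 (KRT6A), 1267 (KRT14), 713 (KRT79), 619 (KRT5), 578 (KRT13), 376 (KRT81), 143 (KRT4) and 65 (KRT17). KRT15 was the only member with reads in every sample. With 65 reads, KRT17 was too low for a test in any comparison that required a minimum of counts.

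SW48 was the line with the highest mean level of 7 members, and for 5 of them (KRT5, KRT13, KRT14, KRT16 and KRT81) its lowest sample lay above the highest sample of every other line. The clearest case was KRT16. In SW48 it ran from 42.1 to 353 CPM over the 8 sorted samples, and 99.1% of its sorted reads came from this line. DLD1 was next with a mean of 0.906 CPM, then HT55 (0.412), HCT15 (0.309), SW948 (0.0581) and RKO (0.0210), and each of these lines overlapped its neighbor in the order. KRT14, the basal keratin with the same coding start, followed the same split, with 1218 reads in SW48 and 2, 2, 0, 0 and 0 in DLD1, HCT15, HT55, SW948 and RKO. Per kilobase of transcript, KRT16 in SW48 averaged 125 CPM, against 6.64 for KRT14 and 3.19 for KRT6A. For comparison, the simple keratins KRT8 and KRT18 averaged 637 and 561 CPM per kilobase in the same 8 samples.

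KRT5, the usual partner of KRT14, averaged 2.86 CPM in SW48, 0.432 in HCT15 and 0.332 in DLD1. HT55 held 2 reads of it, and SW948 and RKO were listed at 0. KRT13 averaged 3.03 CPM in SW48 and under 0.6 CPM in the other lines, of which DLD1 (0.593), HT55 (0.444) and HCT15 (0.386) overlapped. KRT81 averaged 2.90 CPM in SW48 and 0.179 CPM in HT55, the next line. Its copy KRT86 led in the same line, with 207 of its 251 sorted reads in SW48, whereas KRT83, another hair keratin of this cluster, led in HT55 with 225 of 374 reads.

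KRT6A was spread more widely. It averaged 7.37 CPM in SW48 and 4.07 CPM in HT55, where the ranges overlapped (2.01 to 14.2 and 1.15 to 6.41 CPM), and all 8 RKO samples were listed at 0. The copies KRT6B and KRT6C held 43 and 16 reads over all 64 samples, against 1475 for KRT6A. KRT17 held 25 of its reads in SW48 and 22 in HT55.

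The other 3 members were led by other lines. KRT79 was nearly restricted to RKO, which gave 666 of 701 sorted reads. SW48 gave the other 35, and the sorted samples of HT55, SW948, DLD1 and HCT15 were at 0. KRT4 was highest in DLD1 (0.530 CPM) and overlapped SW48 (0.111 CPM) and the rest. The mean of KRT15 ran down from HT55 (17.0 CPM) through HCT15 (12.2), SW48 (10.4), SW948 (9.44) and RKO (7.34) to DLD1 (2.03), and each line overlapped the next.

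**Figure D2:**
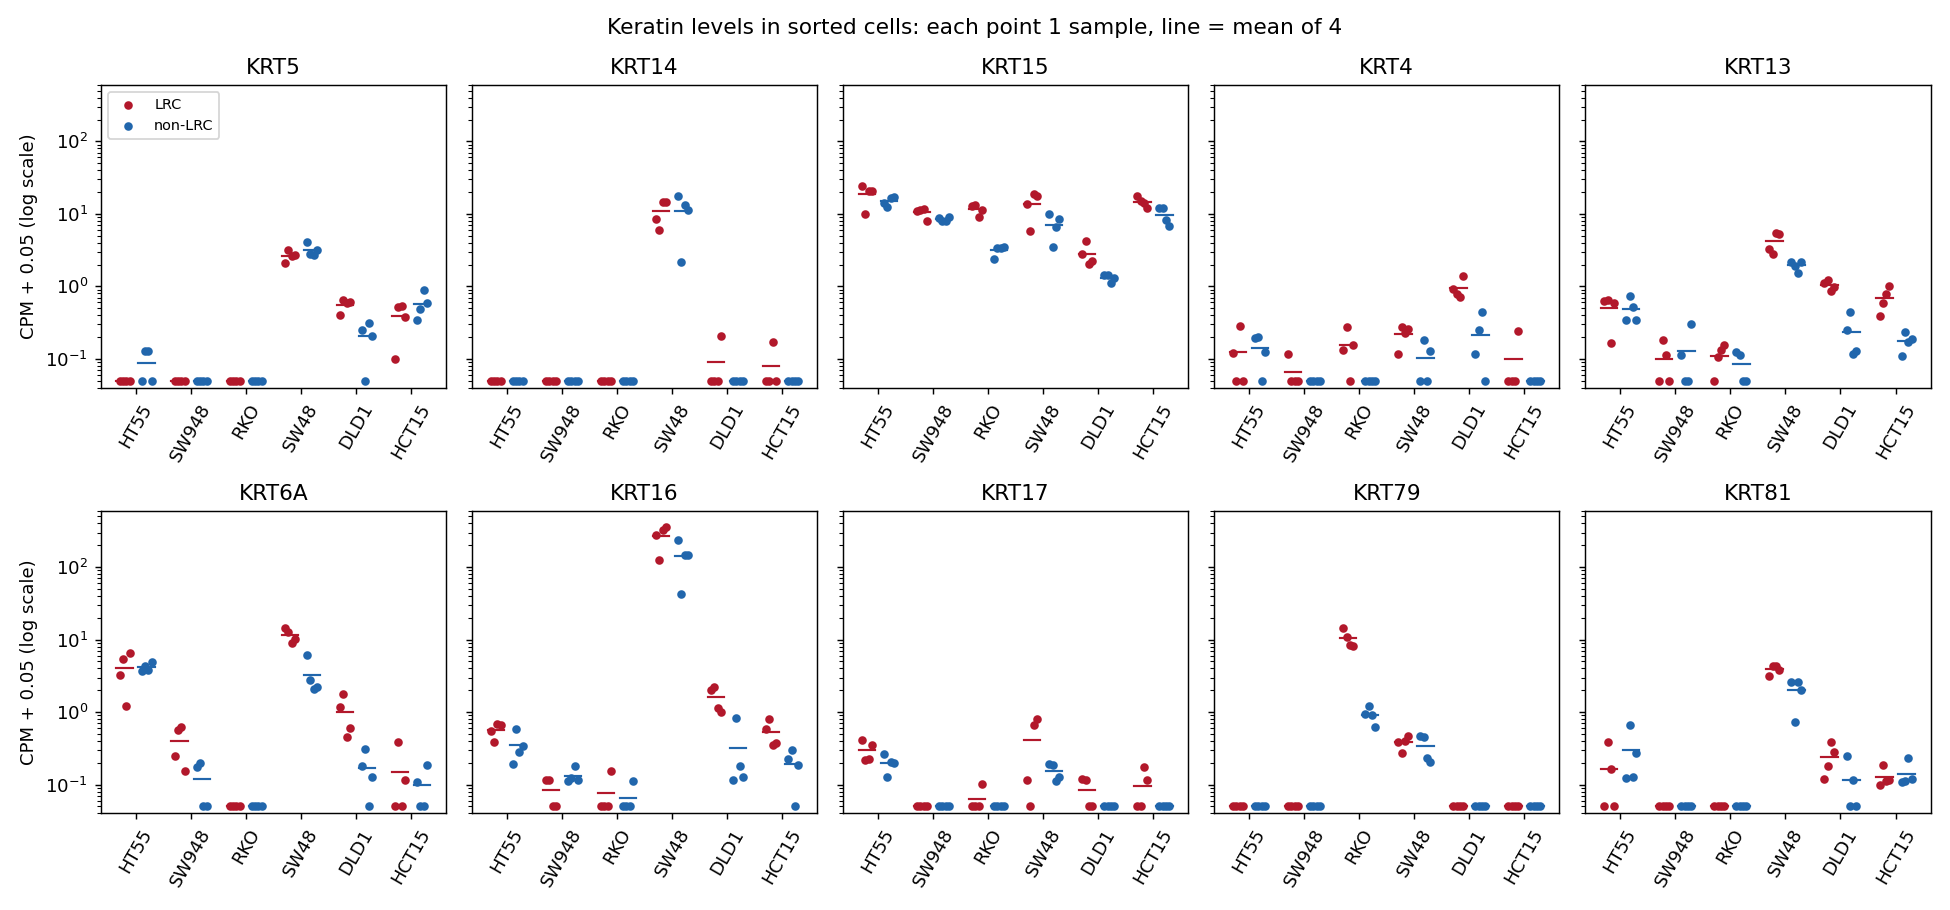
Level of each member in the 48 sorted samples (CPM plus 0.05, log axis), by line, with LRCs in red and non-LRCs in blue, 1 point per sample and a short line at the mean of 4. KRT16 reaches 353 CPM in SW48 and stays under 2.2 CPM elsewhere, KRT79 stands out in RKO, and KRT15 is present in every sample.

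LRCs were compared with non-LRCs over all 6 lines with cell line as a covariate, which estimates 1 average difference. A single line can carry it, so a call does not mean that every line differed. Of the 10 members, 9 had enough counts for the test (at least 10 in at least 4 of the samples compared), and 6 had an adjusted p-value under 0.05, all higher in LRCs. Among all 16603 genes tested, 22.9% were called, 2033 higher and 1770 lower. KRT4 reached the count minimum in LRC samples alone, and KRT79 did so in 4 LRC and 3 non-LRC samples, so the count is a description. The median log2 fold change was 1.10 over the 9 members and 0.01 over all genes. In bulk RNA, more cells that make a keratin and more RNA per cell cannot be told apart.

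KRT15, the basal keratin found in every sample, had the smallest adjusted p-value of the members. It averaged 12.05 CPM in LRCs against 7.42 CPM in non-LRCs and was higher in LRCs in 22 of 24 same-numbered pairs, with a log2 fold change of 0.82 ± 0.13 (SE, adjusted p = 1.05e-05, 1.76-fold). Its size differed between the lines by a test of that difference (adjusted p = 0.0179). This test called 2 of the members, KRT15 and KRT79, against a background of 14.3% of genes, and its call of KRT15 was lost without replicate 1 (adjusted p = 0.163), 3 (0.110) or 4 (0.164). Without replicate 2 it called 3 members, KRT15 (adjusted p = 0.00311), KRT13 (0.0385) and KRT16 (0.0192).

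In RKO, KRT15 stood at 12.7, 13.4, 8.93 and 11.3 CPM in LRCs and at 2.33, 3.37, 3.29 and 3.44 CPM in non-LRCs. The groups lay far apart, and the log2 fold change was 1.90 ± 0.17 (adjusted p = 7.69e-07). In DLD1 it stood at 2.71, 4.22, 2.01 and 2.20 CPM in LRCs and at 1.39, 1.38, 1.05 and 1.25 CPM in non-LRCs. These groups did not overlap either (log2 fold change 1.16 ± 0.26, adjusted p = 0.0161). The DLD1 call was lost without replicate 1 (adjusted p = 0.0772) or replicate 4 (0.0526).

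In the remaining lines KRT15 did not pass the test, and all 4 differences were above 0. HCT15 had 17.7, 15.01, 14.1 and 12.2 CPM in LRCs and 11.9, 12.1, 8.09 and 6.67 CPM in non-LRCs. These groups did not overlap, with a log2 fold change of 0.63 ± 0.20 (adjusted p = 0.158), and with the same-numbered samples paired as a replicate block KRT15 was called there (adjusted p = 0.000742). SW48 gave 0.97 ± 0.37 (adjusted p = 0.304), HT55 0.36 ± 0.23 (0.773) and SW948 0.31 ± 0.14 (0.269). The replicate block called KRT15 in SW48 too. KRT15 passed the test in HT55 without replicate 2 (adjusted p = 0.03004), in SW948 without replicate 4 (0.0481) and in SW48 without replicate 2 (0.0122). In SW48, replicate 2 was the lowest sample of both groups, at 5.83 and 3.43 CPM.

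**Figure D3:**
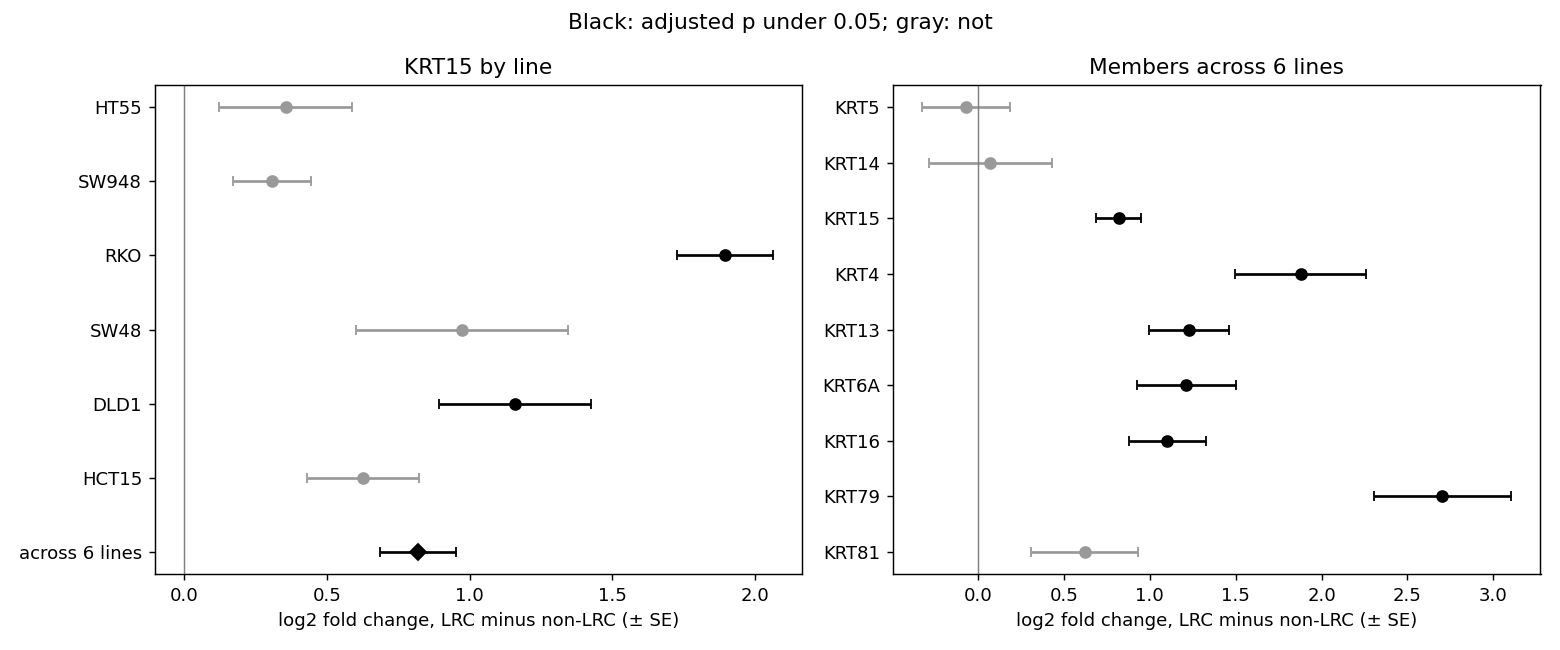
Log2 fold changes of LRCs over non-LRCs with their standard errors, for KRT15 in each line and across the 6 lines (left), and for the 9 members tested across the 6 lines (right). Black marks an adjusted p-value under 0.05 in the unpaired test. KRT15 is right of 0 in all 6 lines and is black in RKO and DLD1, while KRT5 and KRT14 lie at 0 within their errors.

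The other basal keratins did not pass the test across the lines. KRT5 averaged 0.570 CPM in LRCs against 0.644 CPM in non-LRCs (log2 fold change -0.07 ± 0.26, adjusted p = 0.881). KRT14 averaged 1.81 and 1.82 CPM (0.07 ± 0.36, adjusted p = 0.917), nearly all of it from SW48. There it stood at 8.45, 5.98, 14.3 and 14.4 CPM in LRCs and at 17.3, 2.09, 13.1 and 11.3 CPM in non-LRCs, groups that overlapped fully.

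KRT4 and KRT13, the pair of moist mucosa, were called across the lines at low levels. KRT13 averaged 1.06 CPM in LRCs against 0.459 CPM in non-LRCs (log2 fold change 1.23 ± 0.23, adjusted p = 0.000112) and was higher in 18 of 24 pairs. KRT4 averaged 0.218 and 0.0516 CPM (1.88 ± 0.38, adjusted p = 0.000286), with 14 pairs higher, 3 lower and 7 tied, and fell under the count minimum with any 1 replicate number left out. KRT4 reached the count minimum through the 4 LRC samples of DLD1 alone, where most of its signal was. It thus had to differ to enter the test, and its call is a description.

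In DLD1, 4 members were tested and all 4 were called higher in LRCs, against a background of 14.6% of 13592 genes. KRT4, KRT13 and KRT16 reached the count minimum there through their LRC samples, so they had to differ to enter the test. KRT4 had 12, 11, 10 and 17 reads in LRCs and 1, 3, 6 and 0 reads in non-LRCs. The groups did not overlap (log2 fold change 2.34 ± 0.55, adjusted p = 0.0183). KRT13 had 15, 18, 12 and 12 reads against 3, 6, 1 and 1, again without overlap (2.38 ± 0.42, adjusted p = 0.00560). KRT16 had 28, 33, 16 and 12 reads against 1, 12, 2 and 1, where the highest non-LRC sample equaled the lowest LRC sample in reads. Its log2 fold change was 2.496 ± 0.58 (adjusted p = 0.0173). That call was lost without replicate 1 (adjusted p = 0.112), 3 (0.0678) or 4 (0.0536). With a replicate number left out, KRT4 and KRT13 fell under the count minimum in DLD1, as KRT16 did without replicate 2, and 1 member was called without replicate 2 or 3 (KRT15) and 0 without replicate 1 or 4. KRT6A, with 16, 26, 6 and 7 reads against 2, 4, 0 and 1, fell under the count minimum. Without the minimum it was called (log2 fold change 2.92, adjusted p = 0.000924). In the LRCs, replicates 1 and 2 held more KRT6A and KRT16 than replicates 3 and 4.

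KRT13 was also measured in lines other than DLD1. In SW48 it stood at 3.24, 2.73, 5.44 and 5.21 CPM in LRCs and at 2.09, 1.88, 1.46 and 2.15 CPM in non-LRCs. The groups did not overlap, but the call was missed (log2 fold change 1.14 ± 0.26, adjusted p = 0.0942) unless the replicates were paired (adjusted p = 0.0203). In HCT15, 7, 8, 12 and 15 reads in LRCs compared with 1, 3, 2 and 2 reads in non-LRCs, under the count minimum. Without it KRT13 was called (log2 fold change 2.30, adjusted p = 0.0298). HT55 showed no such split, with 8, 7, 2 and 7 reads against 4, 9, 6 and 4.

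KRT6A and KRT16, the wound-induced pair, were both called across the lines. KRT6A averaged 2.82 CPM in LRCs against 1.26 CPM in non-LRCs (log2 fold change 1.21 ± 0.29, adjusted p = 0.00197), with 15 pairs higher, 4 lower and 5 tied. KRT16 averaged 45.7 and 23.8 CPM (1.10 ± 0.22, adjusted p = 0.000286), with 17 pairs higher and 4 lower.

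SW48 was the line with most members to test, and 1 of 7, KRT6A, was called, against a background of 0.796% of 13196 genes. KRT6A stood at 14.2, 12.6, 8.94 and 10.3 CPM in LRCs and at 6.07, 2.69, 2.01 and 2.15 CPM in non-LRCs. The lowest LRC sample was above the highest non-LRC sample, and the log2 fold change was 1.85 ± 0.33 (adjusted p = 0.0321). The call was lost without replicate 3 (adjusted p = 0.274) or 4 (0.372). In HT55, the line with the next highest level of KRT6A, LRCs stood at 3.17, 5.38, 1.15 and 6.41 CPM and non-LRCs at 3.62, 4.21, 3.78 and 4.81 CPM, which overlapped (-0.04 ± 0.40, adjusted p = 0.986). In SW948, where KRT6A was under the count minimum, LRCs held 3, 8, 9 and 2 reads and non-LRCs 2, 2, 0 and 0. The test of a difference between lines gave KRT6A an adjusted p of 0.0585, and called it with the replicate block (adjusted p = 0.000863) or without the count minimum (0.000807).

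KRT16 in SW48 stood at 279, 126, 327 and 353 CPM in LRCs and at 233, 42.1, 147 and 146 CPM in non-LRCs. Replicate 2 was lowest in both groups, and the LRC sample was higher in all 4 pairs. The unpaired test did not call it (log2 fold change 0.94 ± 0.44, adjusted p = 0.3996). The replicates of SW48 deviated together, and with the pairing 4 members were called in place of 1: KRT6A (adjusted p = 0.000348), KRT16 (0.00382), KRT15 (0.00602) and KRT13 (0.0203). Over all genes the pairing called 1279 in place of 105. Without replicate 2 the unpaired test also called 4 members, and without replicate 3 or 4 it called 0. Of 9 squamous cell markers 3 were tested in SW48 and 1 was called, DSG3, which averaged 11.3 CPM in LRCs against 3.47 CPM in non-LRCs. The summed level of the 9 (TP63, DSG3, DSC3, PKP1, KRT1, KRT10, IVL, SPRR3 and KRTDAP) ran from 22.5 to 30.4 CPM in LRCs and from 14.2 to 19.6 CPM in non-LRCs, with IVL at 0 in both groups, and DSG3 made up most of that difference. In DLD1 the sum ran from 17.7 to 18.5 and from 12.6 to 16.2 CPM, most of it KRT10 (means 16.3 and 12.96 CPM). In RKO the order was the other way, 13.9 to 16.6 and 17.3 to 22.3 CPM, with KRT1, IVL and SPRR3 at 0. Again most of it was KRT10 (15.4 and 20.3 CPM). HT55 had the same order as RKO, at 69.1 to 78.5 CPM in LRCs and 78.6 to 91.8 CPM in non-LRCs. The groups overlapped in SW948 (160 to 189 and 174 to 181 CPM) and in HCT15. The sums of HT55 and SW948 lay above those of all other lines, SW48 included. The part of these markers in the keratin results was not tested.

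KRT79, the upper follicle keratin, had the largest fold change of the members tested, in RKO. Its LRCs stood at 14.6, 10.7, 8.44 and 8.01 CPM and its non-LRCs at 0.902, 1.17, 0.862 and 0.563 CPM. Every LRC sample lay far above every non-LRC sample, and the log2 fold change was 3.56 ± 0.26 (adjusted p = 7.27e-08, 11.8-fold). Both RKO members tested, KRT79 and KRT15, were called, in a line where 41.5% of 12731 genes were. In SW48, where KRT79 had 5, 3, 4 and 6 reads in LRCs and 6, 6, 3 and 2 in non-LRCs, the groups overlapped. The call across the lines (2.70 ± 0.40, adjusted p = 5.93e-05) therefore rested on RKO, with 6 pairs higher, 2 lower and 16 at 0 in both, and DESeq2 did not make it (log2 fold change 1.04, adjusted p = 0.173). The LRC effect on KRT79 differed between lines (adjusted p = 0.0146), a call lost without replicate 1 (adjusted p = 0.198), 2 (0.0906) or 3 (0.0743). Beside these values, 6 leukocyte markers summed to 1242 to 1571 CPM in the LRCs of RKO and to 992 to 1147 CPM in its non-LRCs. CD68 made up most of this, PTPRC and CD3E were at 0, and the part of this list in the result was not tested.

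KRT81, the hair shaft keratin, stood in SW48 at 3.11, 4.28, 4.21 and 3.75 CPM in LRCs and at 2.58, 0.673, 2.56 and 1.996 CPM in non-LRCs. The groups did not overlap, but neither SW48 (log2 fold change 0.98 ± 0.33, adjusted p = 0.245) nor the 6 lines together (0.62 ± 0.31, adjusted p = 0.155) passed the test. KRT86 had a log2 fold change of 0.35 ± 0.47 in SW48 (adjusted p = 0.798).

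In HT55, SW948 and HCT15 none of the 2, 1 and 1 members tested was called. The background was 0% of 13391 genes in HT55, 0% of 13674 in SW948 and 0.977% of 14017 in HCT15 by edgeR. At an unadjusted p under 0.05 there were 0, 1 and 1 members, each time KRT15, and 1006 genes in HT55, 2350 in SW948 and 2415 in HCT15. DESeq2 called 0 members in each of these lines, and 37 genes in HT55, 245 in SW948 and 528 in HCT15.

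Other genes of stratified epithelium were described with lists across the 6 lines, to be read against the 22.9% of all genes called in this comparison. Of 19 genes of the cornified envelope, the tough shell of outer skin cells, 12 were tested, 8 were higher in LRCs and none was lower. They included FLG (log2 fold change 3.30 ± 0.46), SPRR2D (2.73 ± 0.48) and SPRR3 (2.52 ± 0.42), all under 0.5 CPM on average. These 3 reached the count minimum through LRC samples alone, so they had to differ to enter the test. Of 14 regulators of stratified epithelium all were tested and 7 were higher, among them ZNF750 (0.76 ± 0.24), TFAP2C (0.56 ± 0.11) and GRHL3 (0.46 ± 0.12). Of 10 basal cell and hemidesmosome genes, which anchor basal cells to their matrix, 5 were higher, led by NGFR (1.37 ± 0.31), LAMA3 (0.44 ± 0.07) and LAMB3 (0.41 ± 0.10). Of 12 desmosome genes, which join keratin filaments of neighboring cells, 10 were tested. The desmosomal cadherin DSG3 (1.33 ± 0.23) and 2 others were higher, and PKP1 fell by 0.28 ± 0.08. The median log2 fold change was 0.66 for the cornified envelope list, 0.27 for the regulators, 0.12 for the basal list and 0.08 for the desmosome list.

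Further keratins and markers were compared in the same way, and their small counts, read against the same 22.9%, are descriptions and not results about the lists. Of 6 simple epithelial keratins 1 was higher in LRCs, KRT23 (log2 fold change 0.46 ± 0.12), and the median was 0.15. Of 15 other stratified keratins, 6 were tested and 2 were higher, KRT9 (1.31 ± 0.35) and KRT80 (0.56 ± 0.11). Of 16 other hair keratins, 7 were tested and 2 were higher, KRT37 (1.99 ± 0.37) and KRT38 (1.33 ± 0.44). The non-LRC means of KRT9, KRT37 and KRT38 were low, at 0.109, 0.0909 and 0.0770 CPM. At such levels these keratins may have needed LRC samples to reach the count minimum, so their calls are descriptions. Of the 10 colorectal markers, VIL1 alone was called and fell by 0.30 ± 0.10. Of the 9 squamous markers 6 were tested, with SPRR3 and DSG3 higher and PKP1 lower. Of 6 leukocyte markers CD68 was called, with 0.77 ± 0.14, and of 6 fibroblast markers 2 were tested and none was called. All of these counts were the same without TMM scaling.

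The DLD1 controls address whether dye or time in culture moved these keratins without sorting. KRT5, KRT15 and KRT16 had enough counts to be tested, and the 4 comparisons below share their groups. The labeled samples of day 1 were uneven. Their replicates 1 and 2 stood far above replicates 3 and 4 in most members, as KRT6A with 47, 55, 6 and 6 reads, KRT14 with 23, 20, 2 and 0 and KRT4 with 25, 19, 0 and 3 show. The summed level of the 10 members was 39.4 and 34.7 CPM in replicates 1 and 2, against 15.3 and 15.2 CPM in replicates 3 and 4 and 7.07 to 13.3 CPM in the 12 other control samples. In the same replicates 1 and 2, the squamous markers summed to 35.0 and 33.1 CPM, of which KRT10 made up most, against 20.5 and 19.0 CPM in replicates 3 and 4. IVL, an early marker of cornification, had 2 and 6 reads there and none in the other 14 control samples. The squamous markers PKP1 and DSC3 went the other way. Over replicates 1 to 4 of these labeled samples PKP1 had 8, 11, 41 and 35 reads and DSC3 1, 2, 5 and 4. The leukocyte markers summed to 32.3 and 33.7 CPM in replicates 1 and 2 and to 18.2 and 20.5 CPM in replicates 3 and 4, and the colorectal markers to 4795 and 5531 CPM against 6227 and 6344 CPM. The part of these values in the keratin results was not tested.

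On day 1, CFSE-labeled cells had 25.9, 21.9, 13.5 and 14.03 CPM of KRT15, and unlabeled cells had 10.5, 11.6, 12.2 and 9.47 CPM. The groups did not overlap (log2 fold change 0.82 ± 0.22, adjusted p = 0.0162). KRT16 stood at 4.46, 3.41, 0.834 and 0.387 CPM with dye and at 0.314, 0.618, 0.115 and 0.161 CPM without, which overlapped (2.94 ± 0.74, adjusted p = 0.0115). Thus 2 of the 3 members tested were called for dye on day 1, against a background of 21.8% of 14518 genes. Without replicates 1 and 2 of the labeled group neither was. KRT15 then had a log2 fold change of 0.36 (adjusted p = 0.447), and KRT16 fell under the count minimum. The KRT15 call was also lost with replicate 1 (adjusted p = 0.128) or replicate 2 (0.115) left out alone, and KRT16 could not be tested then. Without the count minimum 8 members were called for dye on day 1, with all 4 labeled samples included. The share of all genes called without the minimum is not given, so this count is a description.

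From day 1 to the later day, KRT15 decreased in CFSE-labeled cells to 7.39, 7.14, 7.98 and 9.15 CPM, below every day 1 sample (log2 fold change -1.33 ± 0.23, adjusted p = 0.000532). This call remained without replicates 1 and 2 of day 1 (-0.92, adjusted p = 0.0108). KRT16 went to 0.861, 0.372, 0.160 and 0.246 CPM (-2.58 ± 0.73, adjusted p = 0.0104), and 2 of 3 members were thus called against a background of 39.3%. Without replicate 1 or replicate 2 KRT16 fell under the count minimum and only KRT15 was called. In unlabeled cells none of the 3 was called, against a background of 25.5%, none at an unadjusted p under 0.05 and none by DESeq2. KRT15 stood there at 6.44, 7.01, 9.12 and 11.5 CPM on the later day (-0.40 ± 0.23, adjusted p = 0.193), and it passed the test without replicate 4 (-0.66, adjusted p = 0.0288). The difference between these changes, the dye by day interaction, was not called for any member (KRT15 -0.93 ± 0.32, adjusted p = 0.152, with a background of 0.999% and KRT15 alone under an unadjusted p of 0.05, and none by DESeq2).

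On the later day the dye comparison called none of the 3 members, against a background of 5.14%. None had an unadjusted p under 0.05, and DESeq2 called none. KRT15 differed by -0.11 ± 0.23 (adjusted p = 0.811) and KRT16 by 0.91 ± 0.95 (adjusted p = 0.594). KRT5 was uneven in the controls. On day 1 unlabeled cells held 1, 3, 3 and 32 reads and labeled cells 26, 24, 2 and 0 reads, and on the later day 9, 6, 22 and 21 reads and 7, 10, 17 and 19 reads. Its differences were within their errors in all 4 comparisons of dye and day. Without replicate 4, KRT5 was called higher with time in unlabeled cells (2.43, adjusted p = 0.0307) and with dye on day 1 (3.01, adjusted p = 0.0183).

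Sorted and unsorted DLD1 cells are set side by side without a test. KRT15 ran from 1.05 to 4.22 CPM in the 8 sorted samples and from 6.44 to 25.9 CPM in the 16 controls. KRT13 in the LRCs, at 0.804 to 1.19 CPM, lay above the later-day controls, which ran from 0 to 0.310 CPM, and KRT4 in the LRCs, at 0.670 to 1.34 CPM, lay above 0 to 0.0668 CPM in those controls. The labeled controls of day 1 overlapped the LRCs, with KRT13 at 0.128 to 1.26 CPM and KRT4 at 0 to 1.57 CPM. The unlabeled ones of day 1 reached only 0.161 and 0.0524 CPM.

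**Figure D4:**
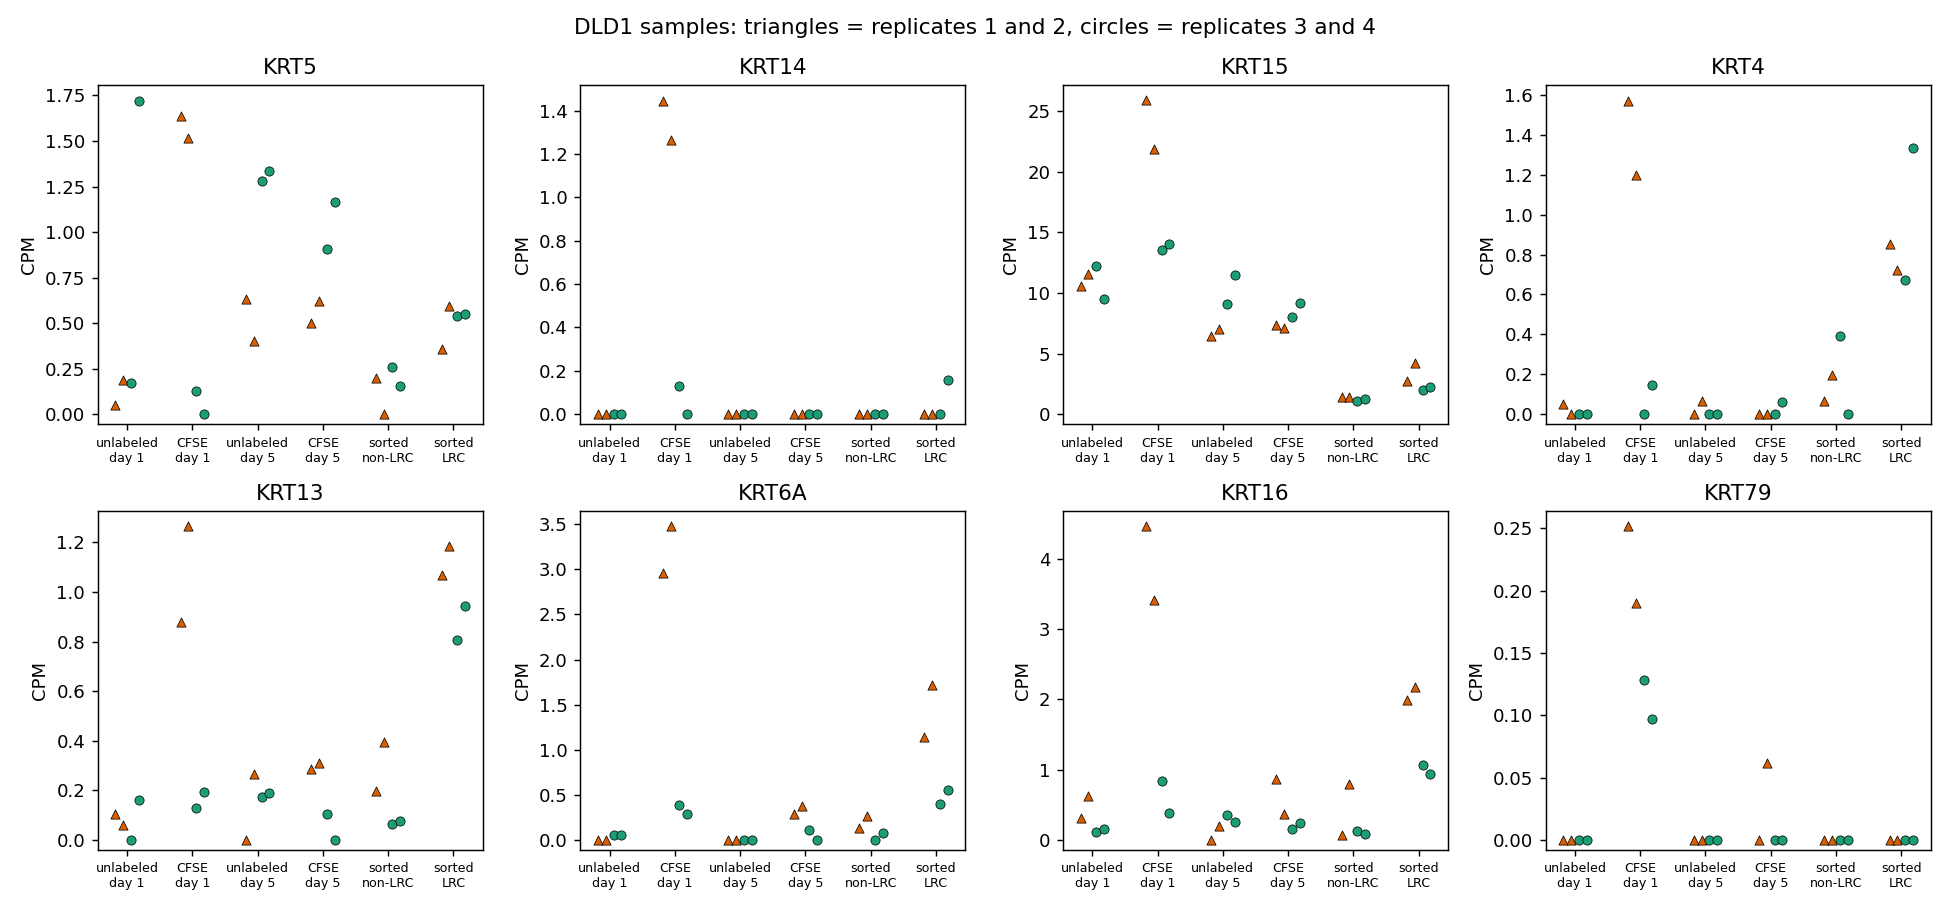
CPM of 8 members in the DLD1 samples, for the 4 control groups and the sorted non-LRCs and LRCs, 1 point per sample, with triangles for replicates 1 and 2 and circles for replicates 3 and 4. In labeled cells of day 1 the triangles lie above the circles for all 8 members shown, and KRT15 is lower in the sorted samples than in all controls.

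The genes whose pattern was most like that of a member were taken from the means of the 16 groups, by Pearson's r of log2 CPM over 16 values among 16899 genes. The points share cell lines, so a line with a high level sets much of r. For KRT16 they were TCAM1P (r = 0.970), KRT14 (0.967) and KRT9 (0.962), and for KRT15 TINCR (0.891), RAET1G (0.848) and a gene listed by identifier only (0.835). KRT5 was closest to WNT16 (0.967), SECTM1 (0.946) and ADGRA2 (0.930). KRT13 was closest to IER5 (0.950), DUOX2 (0.929) and FERMT2 (0.924), and KRT6A to SOX30 (0.921), SSUH2 (0.919) and VEGFD (0.914). KRT79 was closest to SYN1 (0.974) and LINC01239 (0.956), KRT81 to MIR27B (0.978), KLK5 (0.972) and MYO16-AS1 (0.969), KRT14 to TRAPPC12-AS1 (0.986) and MIR31 (0.986), and KRT4 to ADAMTS1 (0.819) and FAM13C (0.777). Genes listed by identifier only were also among the 3 closest to KRT4 (0.783), KRT14 (0.983) and KRT79 (0.947).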

How the data were processed

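RNA was sequenced in 48 sorted and 16 control samples. The deposited tables, 1 per sample, hold raw read counts for each gene as whole numbers, which the authors had not normalized. Reads aligned to several places are listed apart from the genes. According to the methods, reads were 50-base single-end and aligned to hg19. The submitters' processing notes name TopHat, HTSeq and DESeq without versions, and the gene annotation and strand setting are not given in the sources used here. Samples were grouped by their labels. Gene positions came from GENCODE release 44 on GRCh37 (47098 of 54127 genes). Symbols came from a list of gene names, or from GENCODE where that list had none. Repeated windows were counted along the main transcript of each member.

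A gene entered a fit when 4 or more of its samples held 10 or more reads. Testing used edgeR 4.0.16 in R 4.3.3 (two-sided quasi-likelihood F-test after TMM scaling), and p-values were adjusted by Benjamini-Hochberg across all genes tested, with a threshold of 0.05. The SE was the log2 fold change divided by the square root of F. The 48 sorted samples were fitted with a term for cell line, single lines separately, and the 16 controls together. CPM values were TMM-scaled, and r used log2 CPM with a prior count of 2. The replicate numbers paired LRCs with non-LRCs in HT55, SW48, DLD1 and HCT15, where the deviations of every same-numbered pair from their group means correlated above 0.1 (lowest r = 0.185), but not in SW948 or RKO. Among the controls this held for the days of CFSE-labeled cells (lowest r = 0.182) and for no other pair of groups.

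The alternatives were DESeq2 1.42.0, no count minimum, library size without TMM, a replicate block, the omission of 1 replicate number at a time, near-identical copies summed, and all 48 samples in 1 fit for single lines. The fits were tested on simulated data. The text names all members, their near copies KRT6B, KRT6C, KRT83 and KRT86, at most 3 called genes of a list with the largest change, and the 3 genes with the highest r. The members and lists were chosen with earlier results of these data known.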

Additional observations from a re-analysis of the deposited data

Results flagged for a closer look

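The effect of label retention on KRT15 differed between the 6 lines (interaction term in edgeR, adjusted p = 0.0179), with the highest log2 fold change in RKO (1.90) and the lowest in SW948 (0.31). That on KRT79 differed too (adjusted p = 0.0146), with 3.56 in RKO, while SW48 had overlapping groups and the other 4 lines had no reads. As given above, each of these calls was lost in most fits with a replicate number left out. The same test called 14.3% of all genes.

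In 5 of 53 combinations of member and group with at least 10 reads in a sample, 1 of 4 samples stood apart by Dixon's ratio, the gap to the nearest sample divided by the range of the group. Chance marks about 1 in 20. The highest of KRT5 in unlabeled DLD1 cells of day 1 was replicate 4 (ratio 0.920), with 32 reads against 1, 3 and 3. KRT16 in DLD1 non-LRCs was highest in replicate 2 (ratio 0.911), with 12 reads against 1, 2 and 1. Replicate 1 of the SW48 non-LRCs held the highest KRT6A level (ratio 0.833), at 6.07 CPM. For KRT15, replicate 1 of the RKO non-LRCs was lowest (ratio 0.864), at 2.33 CPM, as was replicate 4 of the SW948 LRCs (ratio 0.859), at 8.04 CPM.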

How the results depend on the processing

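Of the 128 repeats of the members' counts of calls, 100 stayed within 1.5 times the first value. None of the 300 repeated levels by line moved beyond the SD of its 8 samples. Leaving out 1 replicate number cannot move a mean that far, so those repeats of the levels show nothing. With each replicate left out in turn, the members called ranged from 0 to 3 for the difference between lines (first 2), 0 to 1 in HT55 and in SW948 (first 0), 0 to 4 in SW48 (first 1), 0 to 1 in DLD1 (first 4, partly because fewer members reached the count minimum), 0 to 2 for day in unlabeled cells (first 0), 1 to 2 for day in CFSE-labeled cells (first 2) and 0 to 3 for dye on day 1 (first 2). With the replicate block, 4 members were called in SW48 and 1 in HCT15, and KRT6A in the difference between lines (adjusted p = 0.000863). The block changed no other call of a member. All 48 sorted samples in 1 fit gave 4 in SW48 and 1 in HCT15, and DESeq2 2 in SW48. Without the count minimum there were 2 in SW48, 1 in HCT15, 6 for day in CFSE-labeled cells and 8 for dye on day 1. Without CFSE day 1 replicates 1 and 2, an alternative chosen after seeing the data, there were 1 for day in labeled cells and 0 for dye on day 1. For counts without the minimum, with replicates left out or in 1 fit, the share of all genes is not given. These counts are descriptions.

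Over all genes, the replicate block called 1279 in place of 105 genes in SW48, 2987 in place of 137 in HCT15, 4591 in place of 1978 in DLD1, 501 in place of 0 in SW948 and 5584 in place of 2380 for the difference between lines. DESeq2 called 360 in SW48 and 528 in HCT15, and in the controls 1521 in place of 746 for dye on the later day and 615 in place of 145 for the interaction.

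Differences near 0 changed sign. With each replicate left out in turn, KRT5 across the lines ran from -0.29 to 0.13, KRT14 across the lines from -0.10 to 0.48, KRT14 in SW48 from -0.17 to 0.40 and KRT6A in HT55 from -0.28 to 0.24. KRT14 in SW48 gave 0.0818 with the block, and KRT6A in HT55 gave 0.00178 with its copies summed. In the controls KRT5 ran from -0.76 to 0.63 for day in labeled cells, -0.36 to 3.01 for dye on day 1 and -3.19 to 0.16 for the interaction, and KRT15 from -0.21 to 0.00553 for dye on the later day. Without CFSE day 1 replicates 1 and 2, KRT5 gave 3.57, -3.08 and 2.86 for day in labeled cells, dye on day 1 and the interaction. The cause of these changes was not tested. At this depth KRT4, KRT13 and KRT17 rested on few reads.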

Other observations

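KRT14 and KRT16, which share their coding start, can be set against each other within a library, where scaling cancels. In SW48 there were 3.03, 4.75, 4.37 and 4.09 reads of KRT14 per 100 reads of KRT16 in LRCs of replicates 1 to 4 and 7.42, 4.95, 8.91 and 7.72 in the non-LRCs of the same numbers. The means were 4.06 ± 0.736 and 7.25 ± 1.66 (SD, n = 4 each), and in replicate 2 the values lay close together. This ratio was chosen after its values were seen, so no test is given.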
